A study of Mus musculus with 2 samples.

Results

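The 9 genes described here make, reduce, carry and sense all-trans retinoic acid: Rdh10, Dhrs3, Aldh1a1, Aldh1a2, Aldh1a3, Crabp2, Rara, Rarb and Rarg. They were taken by name from the 49492 genes of the count table. The choice did not use their values, but earlier results of these data were known. Each of them had at least 10 reads over both libraries, the minimum set for a gene to be compared, which 19233 genes reached. The samples were mammary epithelial cells of wild-type adult female mice. They had been sorted as basal cells and cultured in a 3D matrix gel, either alone with no treatment (ctrl, 1 library) or together with M2-like macrophages for 11 to 14 days (M2, 1 library). No culture time is given for the ctrl library, so a difference in time cannot be told apart from the co-culture. The macrophages were grown from bone marrow, polarised with Il-4 and Il-13, and kept behind a porous membrane, and the medium that both cultures shared is given as DMEM/F12 with EGF and a supplement of insulin, transferrin and selenium, with no retinoid named. In genes, 26912610 reads were counted for ctrl and 29413844 for M2, of which 4.83% and 4.11% were mitochondrial. Positions are given on GRCm38, the build of the table.

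Retinoic acid is a derivative of vitamin A. Retinol is oxidised to retinal by retinol dehydrogenases, retinal is oxidised irreversibly to retinoic acid by the ALDH1A enzymes, and the acid is carried to nuclear receptors of the RAR family, which bind DNA as dimers with RXR and act on their target genes. CYP26 enzymes break the acid down, and several genes of the pathway are themselves induced by it, so that the pathway regulates its own supply. In epithelia, vitamin A is known for opposing squamous, keratinising differentiation, and in the mammary gland ALDH activity is widely used to mark progenitor cells.

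Basal cells cultured alone were compared with co-cultured ones step by step along the pathway. Aldh1a3 was by far the most abundant retinal dehydrogenase in both libraries, while Aldh1a1 was 5.53-fold lower in M2. The receptors Rara and Rarg were 1.64-fold and 1.62-fold lower. Rarb, the rarest receptor, had more reads in M2. Outside the 9 genes, the more abundant CYP26 gene per length was Cyp26b1 in ctrl and Cyp26a1 in M2. With 1 library per group, the spread between cultures is unknown, and no p-value is given. Fold differences compare these 2 libraries and not the conditions, and the intervals beside them (95%) cover counting error only.

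A gene was called when it was at least 2-fold apart between the libraries after scaling. Of the 9 genes, 1 was called higher in M2 (Rarb) and 2 lower (Aldh1a1 and Aldh1a2), while 9.51% of all genes tested were called higher and 7.83% lower. In either direction that was 3 of 9 against 17.3% of all genes. The calls of Rarb and Aldh1a2 rested on fewer than 100 reads. Among the 5085 genes with so few reads, 18.0% were called higher and 16.7% lower. The median log2 ratio of the 9 genes, M2 over ctrl, was -0.66, and that of all genes tested was -0.0051.

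**Figure D1:**
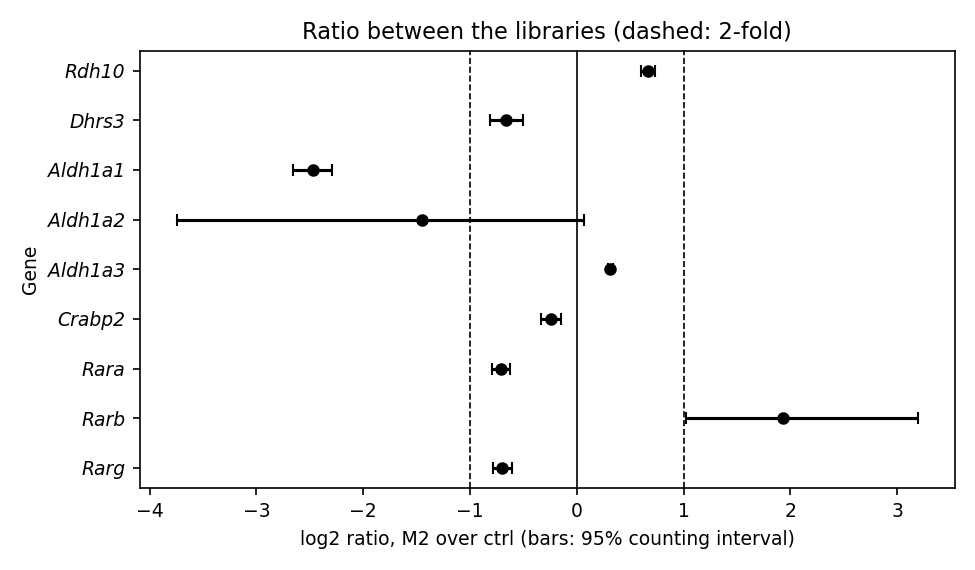
The log2 ratio of M2 over ctrl (x axis) for each of the 9 genes (y axis, in the order of the pathway), with 95% counting intervals and dashed lines at 2-fold. Aldh1a1 lies at -2.47 with a narrow interval, Rarb at 1.93 and Aldh1a2 at -1.45 have wide ones, and the other 6 genes lie between the dashed lines.

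Rdh10 (chr1:16105774-16133734, plus strand) is a membrane-bound retinol dehydrogenase that makes retinal from retinol. It had 3455 reads in ctrl and 5760 in M2, or 30.3 and 48.0 RPKM (reads scaled by gene length and library size). The log2 ratio was 0.67 (0.61 to 0.73), so the gene was 1.59-fold higher in M2. Dhrs3 (chr4:144892827-144928209, plus strand), the enzyme that works in the opposite direction and reduces retinal back to retinol, had 845 and 562 reads. Its log2 ratio was -0.66 (-0.82 to -0.50), a 1.58-fold lower level in M2. Neither gene was called, but their counting intervals lay on opposite sides of 0. The ratio of Rdh10 to Dhrs3, in RPKM, was 2.88 in ctrl and 7.21 in M2.

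The last step, from retinal to retinoic acid, has 3 dehydrogenases. Aldh1a3 (chr7:66390890-66427517, minus strand), known from luminal progenitors of the mammary gland, had 28809 reads in ctrl and 37577 in M2. Its level was 227 RPKM in ctrl and 282 RPKM in M2, above 99.0% and 99.2% of all genes tested. The log2 ratio was 0.31 (0.29 to 0.33), and 26.5% of all genes tested were at least as much higher in M2. Aldh1a3 was thus abundant in both libraries and only 1.24-fold higher in M2.

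Aldh1a1 (chr19:20601961-20643462, plus strand) is the cytosolic enzyme that has also been used as a marker of stem-like cells in several tissues. It had 1541 reads in ctrl and 292 in M2, or 27.3 RPKM (26.0 to 28.7) and 4.93 RPKM (4.38 to 5.53). The log2 ratio was -2.47 (-2.66 to -2.29), and 1.73% of all genes tested were lower by as much. It was the only one of the 9 genes past 4-fold, a threshold that 5.77% of all genes tested passed. For the related gene Aldh1a7, singled out once its counts were known, 253 and 73 reads gave a log2 ratio of -1.85 (-2.26 to -1.48). Transcripts of Aldh1a1 share 3.06% of their words of 50 bases with Aldh1a7, so a small part of the reads of these genes could be exchanged.

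Aldh1a2 (chr9:71215789-71296243, plus strand), the main enzyme of the early embryo, was close to the limit of detection with 12 reads in ctrl and 4 in M2. Its log2 ratio of -1.45 passed the 2-fold mark, but the interval of -3.74 to 0.07 included 0, so that a difference was not detectable at this depth. Per gene length, Aldh1a3 made up 89.2% of the summed RPKM of the 3 genes in ctrl and 98.3% in M2, Aldh1a1 made up 10.7% and 1.72%, and Aldh1a2 0.0758% and 0.0213%. The sum itself was 255 RPKM in ctrl and 287 RPKM in M2. Aldh1a3 therefore outnumbered Aldh1a1 by 8.31 times in ctrl and 57.2 times in M2.

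**Figure D2:**
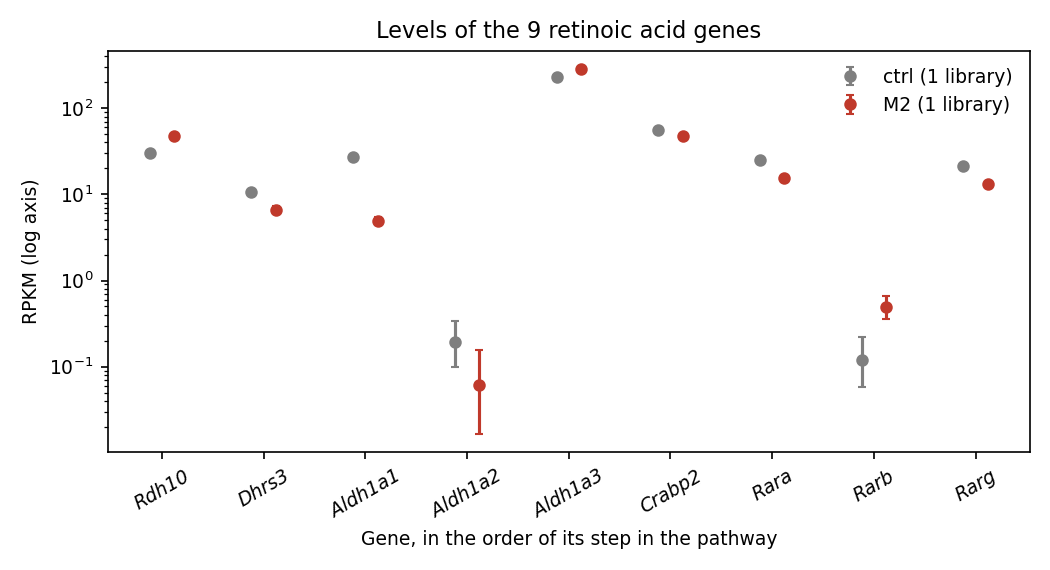
Level of each gene in RPKM (y axis, log scale) in the ctrl library (grey) and the M2 library (red), with 95% Poisson intervals of the counts, in the order of the pathway. Aldh1a3 is highest in both libraries, and Aldh1a2 and Rarb lie below 1 RPKM in both.

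Crabp2 (chr3:87948666-87953376, plus strand) carries retinoic acid from the cytosol to RAR in the nucleus. It had 2027 reads in ctrl and 1802 in M2, or 55.9 and 47.3 RPKM, with a log2 ratio of -0.24 (-0.33 to -0.15). Fabp5, a fatty acid binding protein that can also bind retinoic acid and deliver it to Ppard, had 3852 and 14126 reads and a log2 ratio of 1.80 (1.75 to 1.86). Crabp1, which is known to keep retinoic acid in the cytosol, had only 32 and 39 reads and was not called. Crabp2 was the most abundant of the 3 carriers in ctrl, with 57.8% of their summed RPKM, and Fabp5 in M2, with 73.7%. This order depends on the division by gene length: of the reads of the 3 genes, Fabp5 took 65.2% in ctrl and 88.5% in M2, and Crabp2 34.3% and 11.3%. The ratio of Fabp5 to Crabp2 in RPKM was 0.704 in ctrl and 2.91 in M2. Fabp5 shares 5.48% of its words of 50 bases with 5 other genes, and the most abundant of these copies, Gm6166, had 246 and 921 reads, a log2 ratio of 1.83, so its reads cannot be fully told apart from those of Fabp5. Ppard was not called, with a log2 ratio of 0.39 (0.29 to 0.49).

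The receptors Rara (chr11:98927818-98974942, plus strand) and Rarg (chr15:102234938-102257517, minus strand) bind retinoic acid as transcription factors. Rara had 3028 reads in ctrl and 1942 in M2, or 25.3 and 15.4 RPKM, and a log2 ratio of -0.71 (-0.79 to -0.63). Rarg, the receptor best known from skin and other squamous epithelia, had 2426 and 1573 reads, or 21.5 and 13.3 RPKM, and a log2 ratio of -0.70 (-0.79 to -0.60). Both were lower in M2 by nearly the same factor, below the 2-fold mark, and the ratio of Rara to Rarg in RPKM was 1.17 in ctrl and 1.16 in M2. Together with Dhrs3 and Rdh10 they were among the 7 genes of the 9 that passed 1.5-fold, which 31.5% of all genes tested did. Of their DNA-binding partners, Rxra had 2859 and 1987 reads with a log2 ratio of -0.60 (-0.68 to -0.51), and Rxrb had 736 and 836 reads with a log2 ratio of 0.11 (-0.03 to 0.26). Rxrg had 0 reads in both libraries and was set against a floor of 3 reads (0.109 CPM, the level scaled by library size alone, in ctrl and 0.104 CPM in M2).

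Rarb (chr14:16430842-16575472, minus strand) is a receptor that retinoic acid itself induces in many cells. It had 10 reads in ctrl and 43 in M2, or 0.120 RPKM (0.0576 to 0.221) and 0.491 RPKM (0.356 to 0.662). The log2 ratio was 1.93 (1.02 to 3.19), and 3.45% of all genes tested were as much higher. The counting intervals of the libraries did not overlap, but the level was low: Rarb made up 0.256% of the summed RPKM of the 3 receptors in ctrl and 1.68% in M2. A further limit is its neighbour Top2b, a DNA topoisomerase transcribed towards Rarb from the other strand. In the GENCODE M21 annotation the last exon of Top2b covers 59.0% of the exonic bases that the table counts for Rarb, and the strand setting of the counting is not stated, so some reads of Rarb could be Top2b reads. Top2b itself was slightly lower in M2, with 6201 and 5519 reads and a ratio of -0.24 (-0.29 to -0.19) on the log2 scale. How many of the Rarb reads lie in the shared stretch was not tested.

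**Figure D3:**
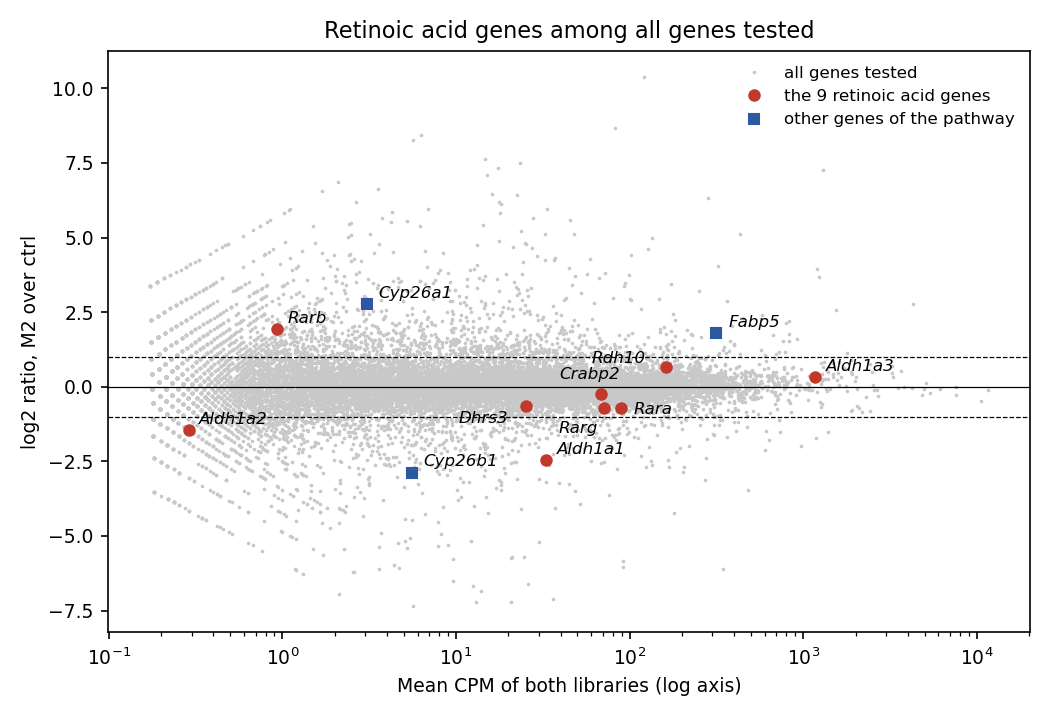
Log2 ratio of M2 over ctrl (y axis) against the mean CPM of both libraries (x axis, log scale) for all 19233 genes tested (grey dots), the 9 retinoic acid genes (red circles) and 3 other genes of the pathway (blue squares), with dashed lines at 2-fold. The spread of the grey dots widens towards low CPM, where Aldh1a2 and Rarb lie, whereas Aldh1a1 lies outside the bulk of genes of its level.

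RAR and RXR are known to bind pairs of a 6-base word in the same orientation, and a spacing of 5 bases (called DR5) is the classical retinoic acid response element. The word AGGTCA and its variants, which were AGTTCA as well as GGGTCA and also GGTTCA, were searched on both strands of RefSeq promoter windows (GRCm38.p6, from 250 bases before to 50 bases after a gene's start) for 2 such words with 5 bases between them. Of the 9 genes, 6 had a window in this collection (Aldh1a1, Aldh1a2, Dhrs3, Rara, Rarb and Rarg), and only the window of Rarb held a match. Of the 66 genes of the 9 and the pathway and target lists together, 48 had a window, and the matches were in Rarb and Cyp26a1. Across all 27025 genes with a window, 0.115% held such a repeat. This search was added after Rarb and Cyp26a1 were known to be higher in M2. That both hold a match therefore supports nothing about their calls. The sites of both are shown. Capitals mark the 6-base words.
Rarb: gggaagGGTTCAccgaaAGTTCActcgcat
Cyp26a1: caaattAGTTCAcccaaAGTTCAtctttaa
The Rarb sequence is the minus strand of chr14:16575506-16575535, which is the strand of the gene, and its repeat ends 37 bases before the RefSeq start. In GENCODE M21, whose Rarb gene extends further upstream, the repeat lies in an exon of Rarb that is annotated as untranslated. The Cyp26a1 sequence is the minus strand of chr19:37697769-37697798, opposite to the gene, and its repeat ends 16 bases before the start, in no annotated exon. The second word of both repeats was the same. A match of letters is a description and does not show that a receptor was bound there in these cells.

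Retinoic acid is broken down by 3 CYP26 enzymes. Cyp26a1, a classical target gene of retinoic acid, had 21 reads in ctrl and 156 in M2, or 0.431 and 3.05 RPKM, and a log2 ratio of 2.76 (2.16 to 3.55). Cyp26b1, the enzyme known from skin and developing limbs, had 272 and 38 reads, or 1.85 and 0.246 RPKM, and a log2 ratio of -2.88 (-3.44 to -2.42). Both were called, in opposite directions. Cyp26c1 had 0 and 4 reads and was not tested. Per length, Cyp26b1 made up 81.1% of the summed RPKM of the 3 genes in ctrl and 7.29% in M2, whereas Cyp26a1 made up 18.9% in ctrl and 90.4% in M2. The sum was 2.28 RPKM in ctrl and 3.38 RPKM in M2. Transcripts of the breakdown enzymes were thus far rarer than those of Aldh1a3 in both libraries, and enzyme amounts were not measured.

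**Figure D4:**
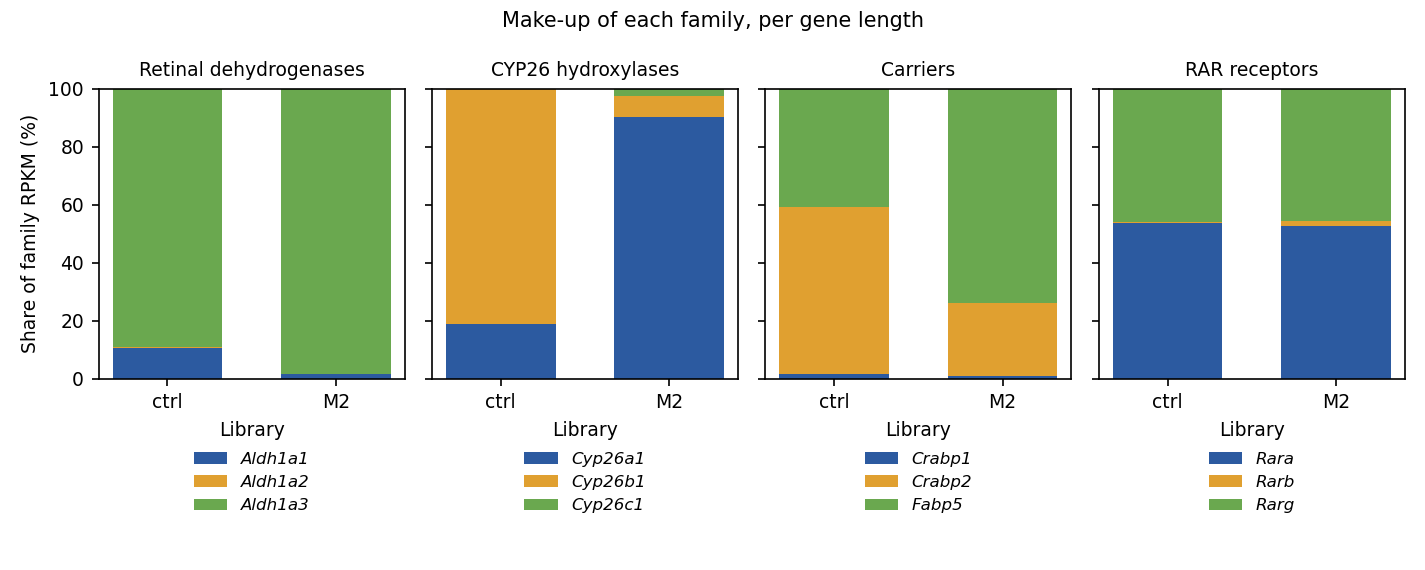
Share of the summed RPKM (y axis, percent) that each gene takes in the ctrl and the M2 library (x axis) for the retinal dehydrogenases, the CYP26 hydroxylases, the carriers and the RAR receptors. Cyp26b1 takes 81.1% in ctrl and Cyp26a1 takes 90.4% in M2, while the shares of Rara and Rarg hardly differ between the libraries.

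The order of levels per length also differed. In ctrl it ran from Aldh1a3 through Crabp2, Rdh10, Aldh1a1, Rara, Rarg and Dhrs3 to Aldh1a2 and Rarb, and in M2 from Aldh1a3 through Rdh10, Crabp2, Rara, Rarg, Dhrs3 and Aldh1a1 to Rarb and Aldh1a2. Aldh1a1 went from rank 4 of 9 to rank 7. The counting intervals of Aldh1a1 and Rara, and of Aldh1a2 and Rarb, overlapped in ctrl, and those of Rdh10 and Crabp2 overlapped in M2. In ctrl the level of Aldh1a1 was above 89.0% of all genes tested, and in M2 above 56.3%.

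The other genes of the pathway were described from lists that do not use the counts, though earlier results of these data were known when they were chosen. Of 57 pathway and target genes beside the 9, 40 had enough reads, of which 2 were called higher and 10 lower, beside 9.51% and 7.83% of all genes tested and 18.0% and 16.7% of those with few reads. Among 12 genes of retinoid uptake and storage, 6 were tested, 0 were called higher and 3 lower. All 3 reached the minimum of 10 reads only through ctrl, where they are high, so this count is a description only. Lrat, which esterifies retinol for storage, and Bco2, which cleaves carotenoids, both had 59 and 4 reads and a log2 ratio of -3.66 (-5.88 to -2.52). A transcript on the other strand, Gm47077, covers 7.60% of the exonic bases of Bco2. Rbp2, a cellular retinol binding protein, had 56 and 2 reads, for which the counting interval ended at a log2 ratio of -2.96 on the side of 0.

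Of 17 further retinoid oxidoreductases, 13 were tested, 0 were called higher and 5 lower, where 7.83% of all genes tested and 16.7% of those with few reads were lower. Sdr16c5, which oxidises retinol in epidermis, had 87 and 4 reads and a log2 ratio of -4.21 (-6.42 to -3.11). Rdh12, a reductase of retinal, had 155 and 19 reads, a ratio of -3.03 (-3.87 to -2.41), and Adh7 had 206 and 87 reads, a ratio of -1.31 (-1.69 to -0.95). The other members called lower, Dhrs9 and Sdr16c6, had fewer than 50 reads in each library. Abundant oxidoreductases such as Dhrs4 (1196 and 1157 reads) and Adh5 (1175 and 1273 reads) had log2 ratios of -0.12 and 0.04. All 9 tested receptor partners and cofactors stayed within 2-fold, from -0.60 for Rxra to 0.50 for Nrip1, a corepressor that retinoic acid induces. The corepressor Ncor1 had 8938 and 9152 reads, a log2 ratio of -0.04.

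**Figure D5:**
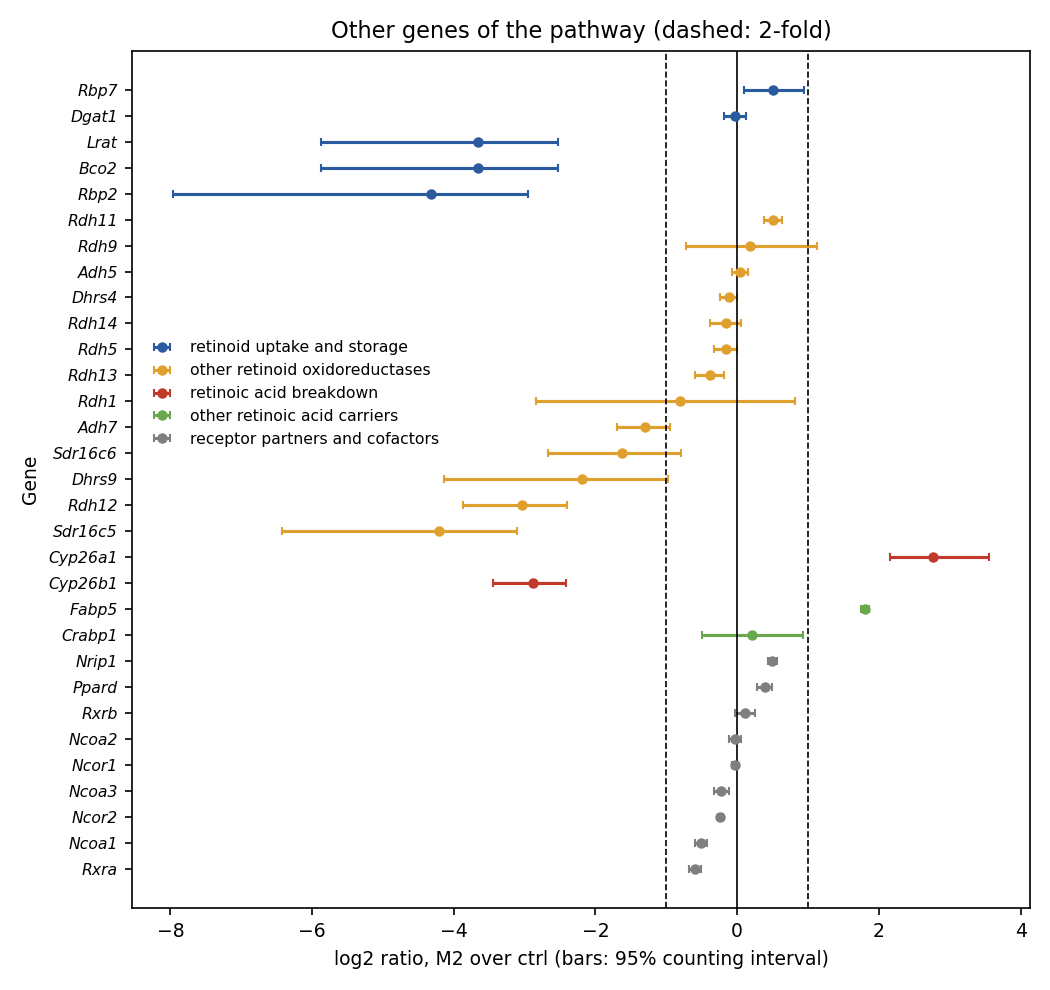
Log2 ratio of M2 over ctrl (x axis) with 95% counting intervals for tested genes of 5 pathway lists (y axis, colour by list), with dashed lines at 2-fold. Genes past the lower line come from uptake and storage, the oxidoreductases and Cyp26b1; Cyp26a1 and Fabp5 lie past the upper line, and the position of Rbp2, with 2 reads in M2, depends on the added read.

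Of 21 genes known to be induced by retinoic acid, which include Rarb, Dhrs3 and Crabp2, 15 were tested and 10 of these were not called. The calls were 2 higher (Rarb and Cyp26a1) and 3 lower (Cyp26b1, Lrat and Rarres1). Among all genes tested, 9.51% were called higher and 7.83% lower, and among those with few reads 18.0% and 16.7%. The median log2 ratio of the 15 genes was 0.06. Rarres1 had 92 and 17 reads and a log2 ratio of -2.44 (-3.35 to -1.75). Tgm2, the tissue transglutaminase, had 4176 and 2889 reads, a ratio of -0.60, and Bhlhe40 had 6085 and 6668 reads, a ratio of 0.06. A list of 12 genes of squamous epithelia was chosen because retinoids are known to lower them. In it, 10 were tested, with a median log2 ratio of -2.61. Of these, 8 were called lower and 1 higher, beside 7.83% lower and 9.51% higher among all genes tested. The exceptions were Sprr1b, called higher with 9 and 22 reads, and Tgm1, which was not called, with a log2 ratio of -0.33. Krt4 (679 and 6 reads), Krt1 (273 and 7 reads) and Krt10 (1228 and 75 reads) had log2 ratios of -6.67, -5.17 and -4.09, and Krt6a (27168 and 13157 reads) had -1.12. Flg, Ivl and Sprr1a had values of -3.44, -2.62 and -2.61. Krt4, Krt1 and Flg reached the minimum of 10 reads only through ctrl, where they are high. The part of retinoids in the levels of the squamous genes was not tested.

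The cell types in the libraries were checked against marker lists. Among all genes tested, 9.51% were called higher and 7.83% lower, and among those with few reads 18.0% and 16.7%. Fewer cells of a type and less RNA per cell cannot be told apart in bulk libraries. Basal markers were abundant in both libraries, with a summed level of 7786 CPM in ctrl and 7703 CPM in M2, led by Krt14 and Krt5, and 1 of 8 was called lower (Oxtr). Luminal keratins Krt8 and Krt18 were also abundant, so the libraries held luminal transcripts beside basal ones. Of 10 luminal markers, 6 were called lower in M2 and 0 higher, and the summed level was 3324 CPM in ctrl and 2486 CPM in M2. The 6 were Elf5, Kit, Foxa1, Esr1, Pgr and Prlr, with log2 ratios from -2.54 (Pgr) to -1.11 (Elf5). The other 4 were not called, with log2 ratios of 0.21 for Krt8, -0.05 for Krt18, -0.08 for Cldn3 and -0.78 for Krt19. Of 9 fibroblast markers, 7 were tested, of which 4 were called lower and 1 higher, with a summed level of 330 CPM in ctrl and 134 CPM in M2, led by Col1a2 and Col1a1. Of 6 adipocyte markers, 3 were tested, 2 were called lower (Lep and Fabp4) and 1 higher (Pparg), and the sums were 9.91 and 2.18 CPM. The part of these cell types in the lower Aldh1a1 and Rar levels was not tested. Macrophage markers were near 0: 11 of 13 in ctrl and 9 in M2 had at most 3 reads, the sums were 9.91 CPM in ctrl and 9.57 CPM in M2, and Adgre1, Ptprc, C1qb, C1qc, Tyrobp and Fcer1g had 0 reads in both libraries. Of the 13, 3 were tested and 1 was called higher, Itgam with 3 and 9 reads, while Mrc1 (1 and 5 reads) and C1qa (0 and 2 reads) had too few reads to be tested. Cd68 and Csf1r, which had the most macrophage marker reads, had log2 ratios of -0.11 and -0.10. Endothelial markers summed to 2.19 CPM in ctrl and 2.81 CPM in M2, of which 3 of 5 were tested, 1 being called higher (Pecam1) and 2 lower. Of the markers called lower, Lum, Lep, Cdh5 and Kdr reached the minimum of 10 reads only through ctrl, where they are high. Pparg, called higher, reached it only through M2, and Itgam only over both libraries.

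Stricter rules left fewer calls among the 9 genes. Aldh1a1 and Rarb kept the whole counting interval past 2-fold, as did 8.39% of all genes tested. The same 2 genes passed 2-fold and an adjusted p threshold of 0.05 in the edgeR exactTest when the biological coefficient of variation was assumed to be 0.2, as did 8.61% of all genes. With an assumed value of 0.4, 0 of the 9 genes passed, against 1.59% of all genes tested. A single library per group cannot give the true value of this coefficient.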

How the data were processed

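RNA of 1 ctrl and 1 M2 library was sequenced. The authors deposited raw read counts per gene, with a gene length (in bases) beside them and no normalization. The submitters' processing notes name the build GRCm38 (mm10). The aligner, the counting tool, the annotation and the strand setting are not given in the sources used here. The deposited values were kept as whole reads, and levels were computed from them.

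Libraries were scaled by TMM in edgeR 4.0.16 under R 4.3.3 (factors 1.02 for ctrl and 0.980 for M2). Genes with at least 10 reads over both libraries were compared, and 1 library alone could supply these reads. The log2 ratio is M2 over ctrl after 1 read was added to each count. Ratios carry 95% intervals by the Clopper-Pearson method on M2's part of a gene's reads, and levels carry 95% exact Poisson intervals. For genes with at most 3 reads in a library the limit nearest to 0 is given. Intervals cover counting error only, because each group has 1 library. No molecular identifiers are stated, so reads copied during amplification could not be told apart and the intervals may be too narrow. The functions were tested on simulated data. edgeR's quasi-likelihood test needs replicates and was not run. The exactTest with an assumed biological coefficient of variation served as an alternative, with Benjamini-Hochberg adjustment over all genes tested.

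The 9 genes, the lists and the alternatives were chosen with earlier results of these data known. The text names the 9 genes, list genes at least 2-fold apart with at least 50 reads in 1 library, the RXR and CYP26 genes, and the 2 markers with the most reads of a list together with those at 0. Any other gene was named after its values were seen. The search for DR5 repeats and the count of shared words of 50 bases (GENCODE M21 transcripts) were also added after the counts had been seen. Of the 9 genes, 7 have the same start and end in the table and in GENCODE M21; Aldh1a1 and Rarb do not. The values of 1 list gene are not reported here.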

Additional observations from a re-analysis of the deposited data

How the results depend on the processing

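Every log2 ratio of the 9 genes kept its sign under 4 other scalings and 2 other pseudocounts. The ratio of Aldh1a1 ran from -2.53 to -2.46, that of Rarb from 1.75 to 1.98 and that of Aldh1a2 from -1.55 to -1.17, and the scalings moved each ratio by at most 0.07. The counts of calls in either direction depended on the filter and on the rule. As reported, 3 of the 9 genes, 21 genes of the pathway, target and squamous lists, and 3335 of all genes were called. With at least 1 CPM in both libraries the numbers were 1, 7 and 1382, since fewer genes can be tested. With at least 1 read, 7174 of all genes were called. At 4-fold there were 1 and 1109, and at 1.5-fold 7 and 6052, for the 9 genes and all genes. With the whole interval past 2-fold, 1614 of all genes remained. The exactTest with an assumed coefficient of 0.2 gave 1656 of all genes, and with 0.4 it gave 0 of the 9, 8 of the lists and 305 of all genes. The median of retinoid uptake and storage genes changed sign to 0.51 with at least 1 CPM in both libraries and also with at least 1 read, because the genes in the median differ. A share of Aldh1a3 without division by length was 94.9% in ctrl and 99.2% in M2. The DESeq2 test was left out for want of replicates. Of the 9 genes, Aldh1a2 and Rarb had the fewest reads. No paired analysis was possible because ctrl and M2 are single libraries.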

Other observations

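The DR5 repeat was looked up in all genes with a RefSeq promoter window, a search added after the counts had been seen. Of 31 genes that hold it, 8 had enough reads to be compared, of which 5 were called higher in M2 and 0 lower. Among the 11817 genes tested that have a window, 9.09% were called higher and 6.77% lower, and among all genes with few reads 18.0% were called higher. The count is a description and supports nothing: Rarb and Cyp26a1 were known to be higher when the search was made. Prokr2 and Prss27 reached the minimum of 10 reads only through M2, where they are high. Beside Rarb and Cyp26a1 the genes called higher were Prokr2 (1 and 33 reads), a receptor of prokineticins, Prss27 (3 and 23 reads), a serine protease of squamous epithelia, and Cfap45 (80 and 233 reads), a protein of motile cilia. Cfap45 had a log2 ratio of 1.46 (1.10 to 1.86), and for Prokr2 and Prss27 the limits of the intervals nearest to 0 were 2.39 and 1.14. Blvrb, Gm4631 and Tnfsf13b were not called, with values of -0.20, 0.20 and -0.33. Of the 8 genes, Prokr2, Prss27, Rarb and Tnfsf13b had fewer than 100 reads over both libraries.

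The sites of the 3 further genes called higher are printed with the 6-base words in capitals, each on the strand on which the repeat reads forward (GRCm38.p6).
Cfap45: taacccAGTTCAagccaGGTTCAgacttta
Prokr2: ctgctgAGGTCAcaacgGGTTCAagagctt
Prss27: ccctggAGTTCAgggccGGGTCAtagagtt
They lie at chr1:172520902-172520931 (minus strand), chr2:132385568-132385597 (minus strand) and chr17:24038088-24038117 (plus strand). The repeat of Cfap45 ends 205 bases before the RefSeq start, inside an annotated exon of the gene, and those of Prokr2 and Prss27 end 128 and 133 bases before the start, in no annotated exon.

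The same words were searched with other spacers, which other nuclear receptors are known to prefer. Among all tested genes with a window, 9.09% were called higher and 6.77% lower. With a spacer of 1 base, 33 genes were tested, 3 were called higher and 1 lower, with a median log2 ratio of 0.14. With 2 bases, which RAR can also bind, 15 genes were tested, 1 was called higher and 0 lower, with a median of 0.04. With 3 bases, 1 of 2 tested genes was called higher, with a median of 2.14, and with 4 bases 0 of 2, with a median of 0.12, while with 6 bases 1 of 6 tested genes was called higher. No test was made of the difference between spacers.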
